A study of Mus musculus with 6 samples.

Results

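The Tnfaip3 to Ifngr1 locus is the stretch of mouse chromosome 10 between 18 and 20 Mb (build mm10), and 26 of the 6502 regions in a deposited ATAC-seq list were centred there. ATAC-seq cuts open chromatin with a transposase, so that accessible DNA yields most reads. The locus was chosen with earlier counts of these same regions known. Its 5 member genes were Tnfaip3, Ifngr1, Il22ra2, Il20ra and Nhsl1. The counts of regions are therefore a description, with no test.

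The libraries came from basal stem cells of mouse prostate, sorted as CD45-CD31-Sca-1+CD49f+ cells and not cultured. That gate should leave out leukocytes, which carry CD45, and endothelial cells, which carry CD31. There were 3 libraries from inflamed prostates, labelled POET3 for genotype, and 3 from naive prostates, labelled WT and control. POET3 mice express ovalbumin in the prostate, and inflammation was set off by transferring activated splenocytes from OT-1 mice, whose T cells recognise ovalbumin, 7 days before harvest. The labelled genotype coincides with the group, so genotype and inflammation cannot be told apart, although the extraction protocol names POET3 mice for both groups. The list gave a chromosome, a start and an end for each region, and nothing per library. Its name and the tools named beside it led to its reading as a list of regions that differ between inflamed and naive cells, but it gave no direction, size or p-value. Which group was the more open at a region is therefore not stated here, and the sorted cell type could not be checked against its markers. Depth per library is unknown, and values carry no replicate error.

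Tnfaip3 encodes A20, a ubiquitin-editing enzyme that NF-kB switches on and that in turn shuts off signalling to NF-kB. Ifngr1 encodes the ligand-binding chain of the interferon-gamma receptor. Il20ra encodes a receptor chain for cytokines of the IL-20 family, which act mainly on epithelial cells, and Il22ra2 encodes a secreted protein that binds IL-22 and keeps it from its receptor. These 3 belong to the class II cytokine receptor family. Nhsl1 encodes a relative of the Nance-Horan syndrome protein that binds the WAVE complex and acts on cell migration.

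Listed regions spanned the annotated starts of Tnfaip3, Ifngr1 and Nhsl1, and each of these regions held the whole RefSeq promoter window, from 250 bases before to 50 bases after the start. The sequences below are the 250 bases before each start, 5′ to 3′ in the direction of the gene (RefSeq, GRCm38.p6, the assembly that mm10 is made from). They lie at chr10:19015411-19015660 on the minus strand for Tnfaip3, chr10:19591699-19591948 on the plus strand for Ifngr1 and chr10:18407425-18407674 on the plus strand for Nhsl1. They are shown because a listed region took in the whole promoter window at each. Reps1, Perp and Il22ra2 had no annotated promoter window, so regions at their starts could not be counted this way. The Nhsl1 start used here lies inside the gene, whose span begins at 18317665. Capitals mark matches, on either strand, to the GC box (GGGCGG, bound by Sp1 and its relatives), to the AP-1 motif (TGANTCA) and, near the end of the Tnfaip3 sequence, to the NF-kB motif in the palindromic form GGAANTTCC and in the form GGG, any 3 bases, TTCC.
Tnfaip3: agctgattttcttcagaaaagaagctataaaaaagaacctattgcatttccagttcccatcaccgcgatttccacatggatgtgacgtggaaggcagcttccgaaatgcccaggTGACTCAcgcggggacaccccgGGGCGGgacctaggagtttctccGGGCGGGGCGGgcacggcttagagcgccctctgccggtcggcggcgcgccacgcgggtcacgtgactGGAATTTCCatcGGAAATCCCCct
Ifngr1: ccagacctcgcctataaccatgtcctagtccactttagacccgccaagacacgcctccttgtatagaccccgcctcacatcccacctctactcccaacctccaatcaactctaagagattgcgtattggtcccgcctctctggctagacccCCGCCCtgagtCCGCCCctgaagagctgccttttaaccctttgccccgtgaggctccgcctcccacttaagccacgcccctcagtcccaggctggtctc
Nhsl1: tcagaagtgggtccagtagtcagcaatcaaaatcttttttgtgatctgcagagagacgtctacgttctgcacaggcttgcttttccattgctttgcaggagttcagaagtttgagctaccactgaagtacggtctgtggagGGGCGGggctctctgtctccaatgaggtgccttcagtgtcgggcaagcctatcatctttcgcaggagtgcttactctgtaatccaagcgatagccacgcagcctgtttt

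The Tnfaip3 promoter held a pair of NF-kB motif matches directly before the start. Counted back from the start, the match to the GGG form lay on the opposite strand from base -12 to base -3, and the palindromic match from -24 to -16. Another match to the GGG form lay 34 to 43 bases after the start, outside the printed stretch. Of all 32851 promoter windows of 300 bases in the table, 5.56% held the GGG form and 0.928% the palindromic form. Of the 196 windows that lay whole in a listed region, 5.1% held the GGG form, 1.53% the palindromic form and 4.59% the AP-1 motif. The window of another Tnfaip3 start, at 19011963, also held 1 match to the GGG form, although no listed region reached it. The palindromic form was added after this sequence had been read. The same promoter had an AP-1 match from -136 to -130, a motif in 7.81% of all windows, and 3 GC boxes between -114 and -81, the last pair of which overlap by 1 base. It also held a TATAAA match, but that lay from -225 to -220, and 4 E-box matches (CANNTG, in 72.3% of all windows), of which the one from -140 to -135 overlaps the AP-1 match.

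The Ifngr1 promoter had 2 GC boxes on the opposite strand, from -99 to -94 and from -88 to -83, and the Nhsl1 promoter had 1, from -109 to -104. GC boxes were present in 35.7% of all windows and in 69.4% of the 196 windows that lay whole in a listed region. The Ifngr1 and Nhsl1 windows matched neither of those NF-kB forms, nor AP-1, TATAAA or the E-box. The interferon regulatory factor motif (GAAA, any 2 bases, GAAA) matched in 3.44% of all windows and the androgen receptor motif AGAACA in 19%. Neither of these, nor the CRE (TGACGTCA, 1.79%) or the ETS motif (CCGGAAG, 8.86%), matched in any of the 3 windows. A looser NF-kB form (GGG, any 5 bases, CC), which takes in the GGG form above, matched in 50.8% of all windows, among them those of Tnfaip3 and Ifngr1. It matched in 69.4% of the 196 windows that lay whole in a listed region. A match describes letters and is not evidence of binding.

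The 3 promoters differed in base composition. The Tnfaip3 window was 56.7% G or C with 22 CpG sites, the Ifngr1 window 60.3% with 14 and the Nhsl1 window 51.7% with 11. The median over all windows was 52.7% with 7 CpG sites, and over the 196 windows lying whole in a listed region 63.7% with 24. All 3 thus had more CpG sites than the median window and fewer than the median of the 196.

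**Figure D1:**
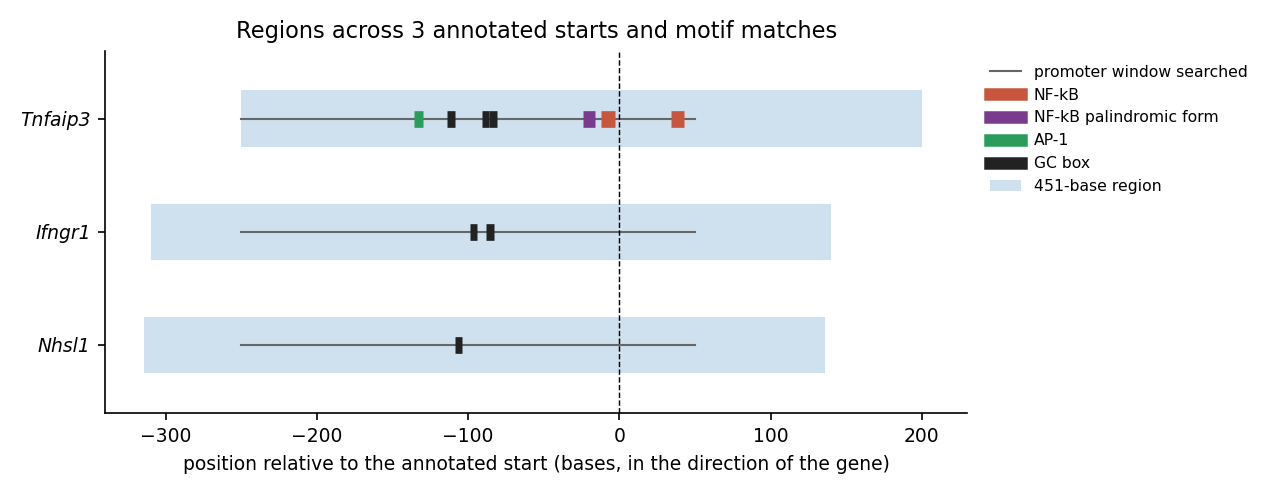
Listed 451-base regions (pale bars) across the annotated starts of Tnfaip3, Ifngr1 and Nhsl1, in bases from the start in the direction of the gene. Grey lines are the promoter windows searched and coloured marks the motif matches; the NF-kB marks lie on Tnfaip3, and GC boxes lie on all 3 promoters.

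At Tnfaip3 (NCBI gene 21929, chr10:19000910-19015410, minus strand), 4 regions were given to the gene, a number reached by 178 of 21887 protein-coding genes (0.813%). A region was given to the shortest protein-coding gene holding its centre, or otherwise to the nearest within 100 kb. The first, chr10:19015210-19015660, held the start and was centred 25 bases upstream of it. The second, chr10:19009260-19009710, lay inside the gene, 5.92 kb downstream of that start and 2.48 kb downstream of a second annotated start at 19011963, and no listed region reached the window of the second start. The other 2 lay upstream, at chr10:19053749-19054199 and chr10:19062167-19062617, 38.6 and 47.0 kb from the start. Regions at Tnfaip3 thus formed 2 pairs, with gaps of 5.50 kb within the pair at the gene and 7.97 kb within the upstream pair. The farther upstream region also overlapped the promoter window of Gm51814, a long noncoding RNA gene, whose start was 0.387 kb from the region's centre.

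Ifngr1 (NCBI gene 15979, chr10:19591949-19610229, plus strand) was given 1 region, chr10:19591639-19592089. It reached from 310 bases before the start to 140 bases after it. No listed region lay within the rest of the gene.

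Il22ra2 (NCBI gene 237310, chr10:19622028-19634681), the next gene along, was given none. Its nearest regions were that of the Ifngr1 start, 29.9 kb to the low-coordinate side, and one 52.8 kb to the other side. Why a stretch has no listed region cannot be told from the list.

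Il20ra (NCBI gene 237313, chr10:19711673-19760053, plus strand) was given 2 regions, and neither was at its annotated start at 19712587. One, chr10:19687449-19687899, lay 24.9 kb upstream, within the long noncoding RNA gene Gm33332. The other, chr10:19745796-19746246, lay inside Il20ra, 33.4 kb downstream of the start and 71.0% of the way along the gene. Of the 5 members, 4 were thus given a region, while 16.9% of all protein-coding genes were. The members were chosen with these counts in view.

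Nhsl1 (NCBI gene 215819, chr10:18317665-18533892, plus strand) was given 8 regions, a count reached by 7 protein-coding genes (0.032%). Of these, 7 lay inside the gene and 1 lay 12.3 kb before it (chr10:18305094-18305544). In the direction of the gene, those inside were centred at 0.458%, 5.66%, 33.0%, 41.6%, 52.5%, 67.4% and 97.3% of its length, so they were spread over the whole gene. The one at 41.6%, chr10:18407361-18407811, held the annotated start at 18407675. The region at 67.4% lay 6.61 kb upstream of a further start at 18469981, whose promoter window no region reached. The region at 0.458%, chr10:18318430-18318880, lay 0.990 kb inside the low-coordinate end of the span, where this plus-strand gene begins. No promoter window was annotated at that end, and both annotated starts lie inside the span.

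All 8 Nhsl1 regions were 451 bases wide. Among genes whose regions all had that width, Nhsl1 had the most. Next were Fam189a1 with 6, and Cwc27, Epha3, Iqgap2, Pakap and Rora with 5 each. Inside the gene, Nhsl1 had 32.4 regions per Mb of its length, against 15.0 for Fam189a1, 21.5 for Cwc27, 15.1 for Iqgap2, 12.5 for Epha3, 10.8 for Pakap and 6.80 for Rora. These genes were ranked on the same counts that chose Nhsl1, so the order is a description.

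**Figure D2:**
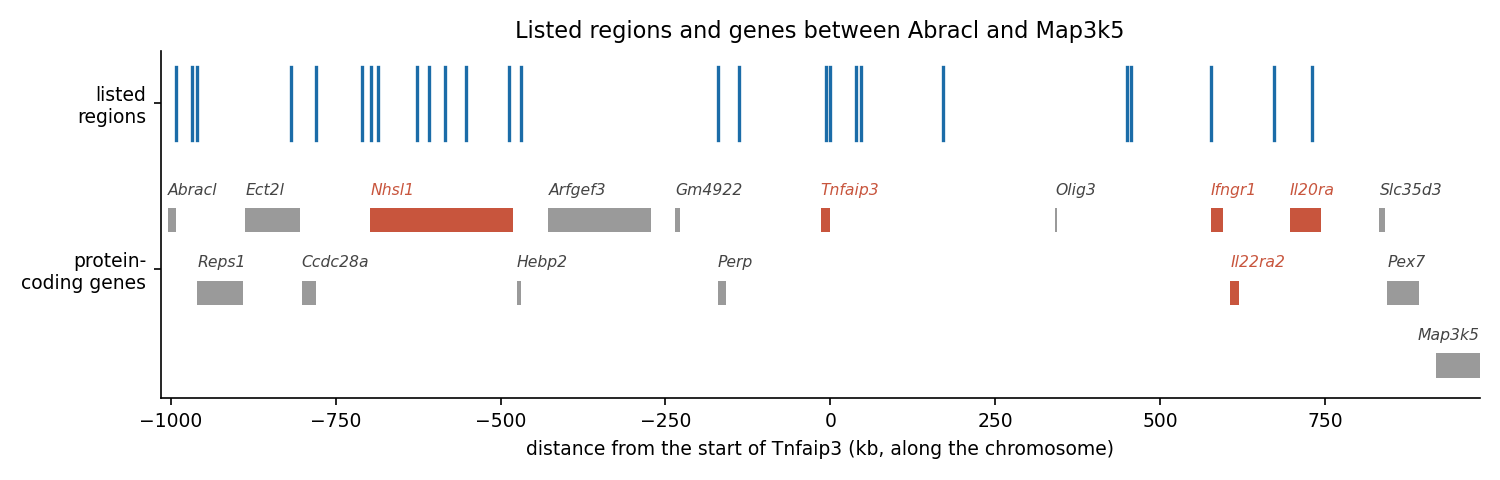
The 26 listed regions of the locus (blue lines at their centres) above its protein-coding genes, in kb from the start of Tnfaip3; member genes are red, and Map3k5 is cut at the window's edge. Nhsl1 holds 7 regions, the highest number inside a gene of the locus, and the stretches over Arfgef3 and Olig3 and beyond Il20ra have none.

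Of the 26 regions, 15 were given to members, 8 to other protein-coding genes and 3 to none. Of the 8, 5 lay at an end of their gene, those of Abracl, Reps1, Ccdc28a, Hebp2 and Perp. One lay across the low-coordinate end of Perp, which encodes a membrane protein of desmosomes and is a target of p53 and p63 (chr10:18844761-18845211, centred 85 bases outside the gene), and a second lay 19.3 kb beyond the other end of that gene. Reps1, an endocytosis gene, had a region across its low-coordinate end, centred 71 bases inside (chr10:18055408-18055858), and another 7.75 kb outside. Abracl, Ccdc28a and Hebp2, a haem-binding protein gene, each had 1 region that held an annotated start and part of its promoter window. Ect2l had 1 region that lay 13.5 kb inside it.

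Of the 17 protein-coding genes that overlap the window, 11 were given a region and 6 were not, while 16.9% of all protein-coding genes were given one. A window chosen for its many regions raises this count by itself. The 6 were Arfgef3, Gm4922, Olig3, a transcription factor gene of the nervous system, Il22ra2, Slc35d3 and Pex7, the gene of a peroxisomal import receptor. Map3k5, the gene of the stress kinase ASK1, is counted among the 11. It reaches beyond 20 Mb, and its 2 regions lay there, outside the locus, 1 of each width.

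The 3 regions given to no gene lay between Tnfaip3 and Ifngr1. One, chr10:19186206-19186656, was within the long noncoding RNA gene Gm20139, 170 kb from the nearest protein-coding gene. The other 2, chr10:19464239-19464689 and chr10:19471727-19472177, formed a pair with a gap of 7.04 kb, 106 and 113 kb from Olig3.

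Ends of genes and annotated starts were counted separately. Of the 26 regions, 8 (30.8%, exact Clopper-Pearson 95% interval 14.3 to 51.8) had their centre no more than 1 kb from a protein-coding gene's end, while 11.3% of the whole list and 17% of its 451-base regions did. Intervals cover counting error only, and neighbouring regions are not independent. Of the 25 promoter windows in the locus, 7 (28%) were overlapped by a listed region, while 2.21% of all windows were. For windows lying whole in a region the values were 3 (12%) in the locus and 0.597% of all windows. Reps1, Perp and Il22ra2 had no promoter window, so the regions at Reps1 and Perp are not in these counts. A stretch chosen for its many regions has more windows overlapped for that reason alone, and no test was made.

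All 26 regions were 451 bases wide, as were 50.6% of the whole list. In the rest of the list 50.4% were, and on the rest of chromosome 10 59.3% were. The list has 2 main widths, 143 and 451 bases, and no source used here says what they stand for. The exact 95% interval on 26 of 26 runs from 86.8% to 100%, but it counts neighbouring regions as independent, which they are not. The run of 451-base regions went beyond the window, with 29 in a row from 17869739 to 20046473, over 2180 kb. A longer run of that width was found at 1 place, on chromosome 4, where 34 regions in a row were spread over 3870 kb. The median run of 451-base regions held 2.

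Regions were closely spaced. The locus held 13.0 regions per Mb, chromosome 10 held 3.27 and the genome 2.41. The median gap between neighbours was 37.4 kb in the locus (25 gaps, from 5.50 to 299 kb) and 157 kb in the list without it. Gaps under 10 kb numbered 4, and gaps over 100 kb numbered 6. The widest gap lay between the regions at Hebp2 and Perp and spans Arfgef3. The regions took up 11.7 kb of sequence in all.

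Among 1326 windows of 2 Mb on chromosomes 1 to 19 and X, the locus ranked second by number of regions, behind a window on chromosome 3 with 28, of which 18 were 451 bases wide. By the number of 451-base regions the locus came first, with 26, ahead of a window with 20. The median window had 4 regions. Windows with at least 10 regions numbered 167, and in 7 of them all regions were 451 bases wide. The next largest of these held 19, on chromosome 4. The window that holds Fat1, a giant cadherin gene with many listed regions, on chromosome 8, had 23, of which 16 were 451 bases wide. Differences between windows were not tested, since the locus was chosen from the same counts.

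**Figure D3:**
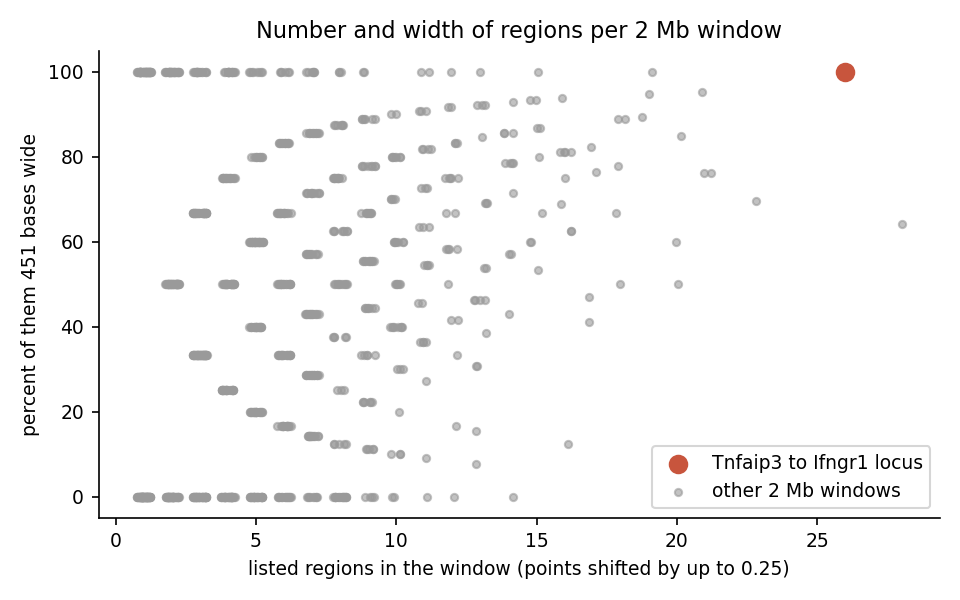
Each point is a 2 Mb window with at least 1 listed region; the x axis gives its number of regions and the y axis the percent of them that are 451 bases wide. The locus (red) stands at 26 regions and 100%, and the window with more regions, 28, stands at 64.3%.

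With windows starting at even Mb, the neighbouring windows on chromosome 10 differed from the locus in number and width. The 2 Mb before it held 15 regions, 9 of 451 bases and 6 of 143 bases, and the 2 Mb after it held 14, 11 of 451 bases and 3 of 143 bases. The next highest window of the chromosome, from 92 to 94 Mb, held 20. These counts depend on where windows begin, since those from 17 to 19 Mb and from 19 to 21 Mb held 27 and 17 regions. With the locus window widened by 0.5 Mb on each side, there were 13.3 regions per Mb, against 13.0 in the locus. At the edges of the window, 2 regions lay just outside. One was chr10:17947989-17948439, given to Heca and 51.8 kb before the window. The other was chr10:20046023-20046473, inside Map3k5 and 46.2 kb beyond the window. Just inside were chr10:18022719-18023169, at Abracl and 22.9 kb from the edge, and the Il20ra region, 254 kb from the other edge. All of these were 451 bases wide.

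**Figure D4:**
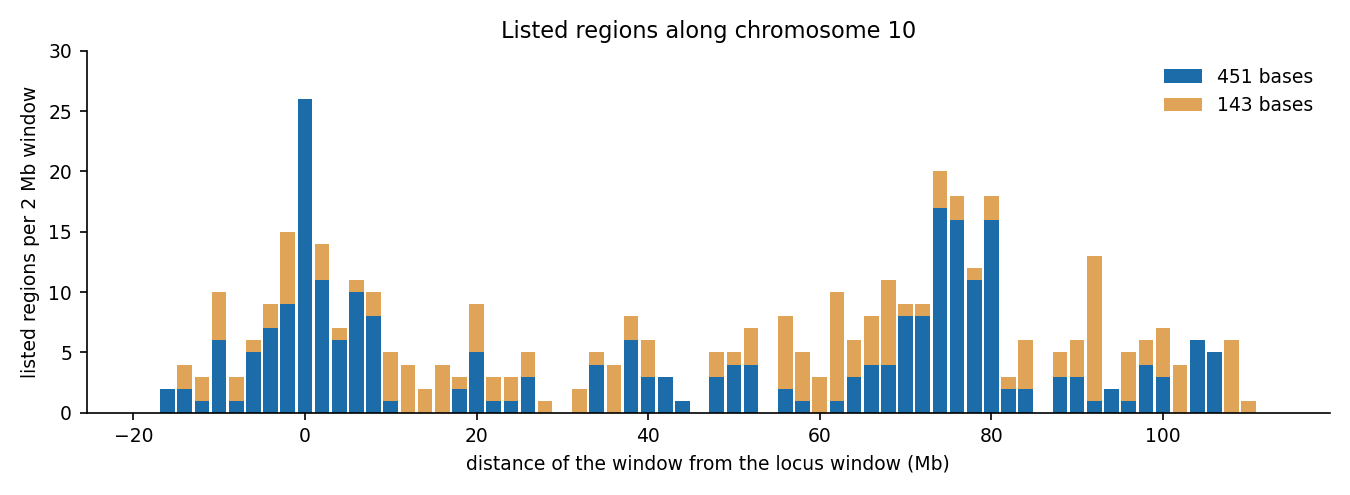
Listed regions per 2 Mb window along chromosome 10, split by width (blue 451 bases, orange 143 bases), by distance in Mb from the locus window at 0. The locus window is the highest, at 26, and holds no 143-base region; a second group of high windows lies 74 to 80 Mb away.

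Genes that work with the members were listed too, from 5 lists chosen with earlier results known. Of 16 partners and relatives of A20, 6 were given a region (37.5%, against 16.9% of all protein-coding genes). They were Tnip1 with 2 regions and Tnip3 with 4, which encode A20-binding proteins, Tax1bp1 and Rnf11, of the A20 complex, Otud7b, which encodes the deubiquitinase Cezanne, and Traf2, an adaptor of TNF receptors, with 1 each. All 10 of these regions were 143 bases wide, while the 4 at Tnfaip3 were 451 bases wide. The closest to a gene end was at Tnip3, 0.113 kb outside the gene (chr6:65590214-65590356). Since this list was short and chosen with earlier results known, nothing is read from its share either.

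Among the other 9 class II cytokine receptor genes, 1 was given a region. It was Il20rb, the partner chain of Il20ra, whose 143-base region lay 22.4 kb from the gene (chr9:100435253-100435395). Ifngr2, the partner of Ifngr1, was given none. Of 10 ligand genes, 3 were given a region: Ifng, which encodes interferon gamma, with one 22.0 kb outside the gene, Il19, with one 1.22 kb inside it, and Ifnb1, with 2. Of 11 genes of interferon-gamma signalling, 2 were given a region. Jak2, a kinase bound to the receptor, held 1 region of 143 bases, 19.5 kb within the gene, and Irf1, a transcription factor gene of the interferon response, had 2 of 143 bases. Over these 3 lists, without the members, the shares with a region were 1 of 9, 3 of 10 and 2 of 11, beside 16.9% of all protein-coding genes. The lists are short, and the receptor and signalling shares are below or near that background, so nothing is read from them.

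In the NHS family, Nhs was given 1 region of 143 bases, 61.8 kb outside the gene. Nhsl2 was given 3 regions of 451 bases, and both genes are on chromosome X. Without Nhsl1, 2 of 2 matched genes were thus given a region, beside 16.9% of all protein-coding genes. Nothing is read from so short a list. Nhsl3 had no match in the gene table.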

How the data were processed

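ATAC-seq was run on 6 libraries of sorted basal prostate stem cells. The submitters' processing notes name BWA 0.7.17-r1188, HOMER 4.8, SAMtools and edgeR, with mm10 as build. Their order, thresholds and pooling are not given in the sources used here. The authors deposited 1 merged list of 3 columns for the series, whose values are coordinates and no other unit. Starts, counted from 0 in the list, are printed from 1. Beyond the name of the list and the tools, nothing used here states whether a differential filter shaped it. Such a filter would leave out regions just short of it.

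Regions were assigned to the locus by their centre (18 to 20 Mb of chromosome 10). Genes and promoter windows of 300 bases came from RefSeq tables of GRCm38.p6, which give gene spans without exons, so exons and introns were not told apart. Annotated starts come from the promoter table, which matched 4 of the 5 members. The planned motifs, and GGAANTTCC added after the data were seen, were searched on both strands. Python 3.11.15, pandas 2.3.3, NumPy 2.4.6 and SciPy 1.17.1 were used, and gene assignment and motif search were tested on simulated data. Members, gene lists and motifs were chosen with earlier results of these data known. Named were the members, the genes of the window, noncoding genes holding a region, list genes with a region, and the genes with most regions among those with 451-base regions only. A planned motif and a list gene are not reported here. No test between inflamed and naive libraries could be fitted.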

Additional observations from a re-analysis of the deposited data

How the results depend on the processing

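No paired analysis was possible because the deposited list carries coordinates alone, with no value for any sample, and for the same reason no library could be left out. Of 66 values under alternatives, 50 stayed within 1.5 times the main value (for the percent of 451-base regions, within its exact interval) and 16 moved. Part of this tally was fixed in advance, because all 26 regions were 451 bases wide and the smallest gap was 5.50 kb. Keeping only regions of at least the median width, or merging regions within 1 kb, could not change the counts or gaps of the locus. Keeping only those below the median width had to leave 0. Widening the window could not lower its count of regions, and taking chromosome 10 alone could not raise the number of windows. The tally is therefore no measure of how firm the results are. With the window widened by 0.5 Mb on each side, the locus held 40 regions, at 13.3 per Mb, and 90.0% of them were 451 bases wide. With regions below the median width alone, the locus held 0 regions (0 per Mb), and 0 were given to Tnfaip3, Ifngr1, Il20ra and Nhsl1, so 0 members had one; no gap or rank of windows could then be given. With a limit of 20 kb, with noncoding genes as candidates, or with overlap of the gene span alone, Tnfaip3 had 2 regions in place of 4 and Il20ra 1 in place of 2, because the outlying regions fall beyond the limit or go to noncoding genes. Nhsl1 had 7 or 8 regions under each of these, and 7 by nearest gene end. Windows with at least 26 regions numbered 2, but 1 with 451-base regions alone and 1 on chromosome 10 alone. With windows starting at odd Mb there were also 2. The window from 17 to 19 Mb held 27 and that from 19 to 21 Mb held 17.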
